A study of Mus musculus with 10 samples.

Results

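Pericytes and vascular smooth muscle cells, together called mural cells, wrap the endothelium of blood vessels. The 10 genes described here are 5 that mark pericytes (Notch3, Pdgfrb, Cspg4, Rgs5 and Abcc9) and 5 of the smooth muscle contractile apparatus (Acta2, Myh11, Tagln, Cnn1 and Mylk). They were chosen by gene symbol, through the Ensembl identifier of each row, out of 78298 genes in the deposited table. All 10 passed the filter on low counts and were among the 16700 genes tested. The question asked of them was whether either set differed with p38δ genotype, and whether the sets differed in the same way.

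The libraries came from hearts of female mice on a C57BL/6J background. Each mouse had been given 1 dose of 30 mg/kg doxorubicin into the peritoneal cavity, and the hearts were taken 72 h later. This anthracycline is used against tumours and can damage the heart muscle. One group of 5 was labelled wild type and the other group of 5 was labelled as a germline knockout of p38δ, the stress-activated kinase encoded by Mapk13. Every heart had received the drug, so its own effect was not measured. The labels do not give the mice's age or the part of Mapk13 that was removed. A germline deletion is present in every cell type, so a difference cannot be assigned to mural cells. Wild-type libraries are numbered 1 to 5 and knockout libraries 1 to 5 in the order of their deposition, and a number does not pair mice across groups.

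In blood vessels the NOTCH3 receptor is activated by Jagged and Delta ligands on neighbouring cells and maintains mural cell identity. Endothelial cells secrete PDGF-B, which recruits pericytes through the receptor PDGFRβ. Pericytes of capillaries carry little of the contractile apparatus that fills arterial smooth muscle, where calcium and calmodulin activate myosin light chain kinase and smooth muscle myosin then pulls on α-smooth muscle actin. Serum response factor, with its partner myocardin, switches on contractile genes through the CArG box.

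Total counts ranged from 21403189 to 40627138 per library. Mapk13 held 292, 5, 2, 1 and 4 counts in wild-type libraries 1 to 5 and 12, 10, 10, 15 and 9 in knockout libraries 1 to 5, so its level did not check the genotype labels. The 8 ventricular cardiomyocyte markers summed to 18458.1 to 55785.0 CPM and were present in every library, as the heart label requires. CPM is the usual normalised read count relative to library size, here with TMM factors. No marker of the lists used here was at 0 in all libraries. Wild-type library 1 stood apart from the other 9. All 13 airway and lung epithelium markers were highest there, with a sum of 2235.1 CPM against 1.02 to 178.8 CPM in the other wild-type libraries and at most 3.20 CPM in the knockout libraries. Its skeletal muscle markers summed to 483.2 CPM, while the other wild-type libraries held 7.82 to 11.02 CPM and knockout libraries 6.83 to 21.7 CPM. Markers of other tissue were not confined to it. The 178.8 CPM of airway markers was in wild-type library 3. The 6 atrial cardiomyocyte markers summed to 1408.4 CPM in wild-type library 1, 315.9 CPM in wild-type library 2 and 34.9 to 128.7 CPM in the remaining libraries. Wild-type library 1 was the highest of the 10 for 27.8% of the genes tested and the lowest for 22.5%. Knockout library 4 was the highest for 16.6%. For the 10 genes, values that move with either library are given with and without it.

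Scaled to exon length, Rgs5 was the most abundant of the 10 transcripts in these hearts. Its median over the 10 libraries was 111.5 CPM per kb of exon (range 62.1 to 124.3). Abcc9 followed at 27.0 CPM per kb (13.5 to 39.9), and the ranges of Rgs5 and Abcc9 did not overlap. Next came Acta2 at a median of 7.11, Pdgfrb at 5.68, Tagln at 4.42, Myh11 at 3.68, Notch3 at 2.76 and Mylk at 2.51 CPM per kb. Neighbours within this middle part of the order overlapped in range and are not separated by their spread. Cspg4 at 0.93 CPM per kb (0.68 to 1.21) lay below the whole range of Mylk, and Cnn1 at 0.17 CPM per kb was the lowest by median. Cnn1 reached 2.85 CPM per kb in wild-type library 1, above every Cspg4 value. In each of the 10 libraries the pericyte gene Rgs5 thus had a higher level per length than any contractile gene.

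**Figure D1:**
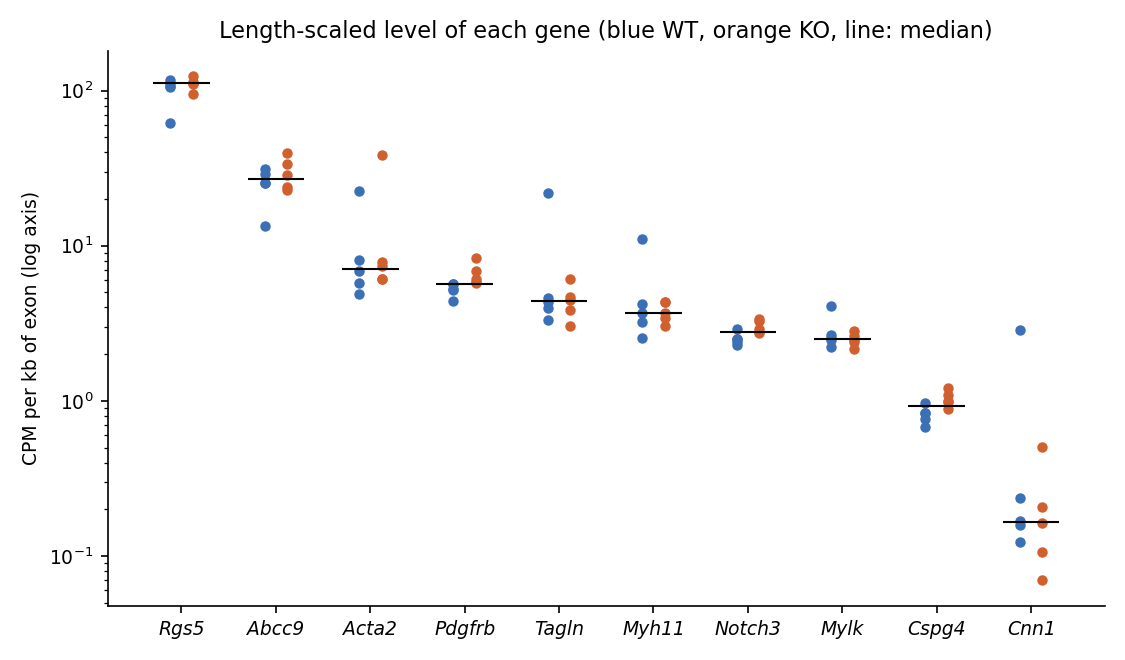
CPM per kb of exon (log axis) for the 10 genes, ordered by their median over 10 libraries (black line). Blue points are wild-type and orange points knockout libraries. Rgs5 lies between 62.1 and 124.3 CPM per kb and Cnn1 has a median of 0.17.

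None of the 10 genes passed the genotype test at an adjusted p of 0.05 (edgeR quasi-likelihood test, Benjamini-Hochberg over 16700 genes, n = 5 per group), where 0.353% of all genes tested passed. DESeq2 called 0 of the 7 for which it gave an adjusted p, and limma voom with quality weights called 0 of the 10. Before adjustment, 3 of the 10 had p under 0.05 by edgeR, all with higher knockout values, and these were Notch3, Pdgfrb and Cspg4. Under scaling by totals alone the count was 1, Pdgfrb, and Notch3 and Cspg4 no longer passed. Over all genes tested 6.86% had an unadjusted p under 0.05 in either direction and 3.08% with higher knockout values. Log2 fold changes, written as knockout over wild type, were above 0 for all 5 pericyte genes, with a median of 0.27, and for 1 of 5 contractile genes, with a median of -0.40. Over all genes tested 46.6% were above 0 and the median was -0.01. Without wild-type library 1, all 5 genes of each set were above 0, with medians of 0.24 and 0.14, against 50.9% of all genes. The members and their sets were chosen with earlier results of these data known, so these counts are descriptions. Both sets are read from bulk tissue, in which fewer cells of a type and less RNA per cell cannot be told apart.

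**Figure D2:**
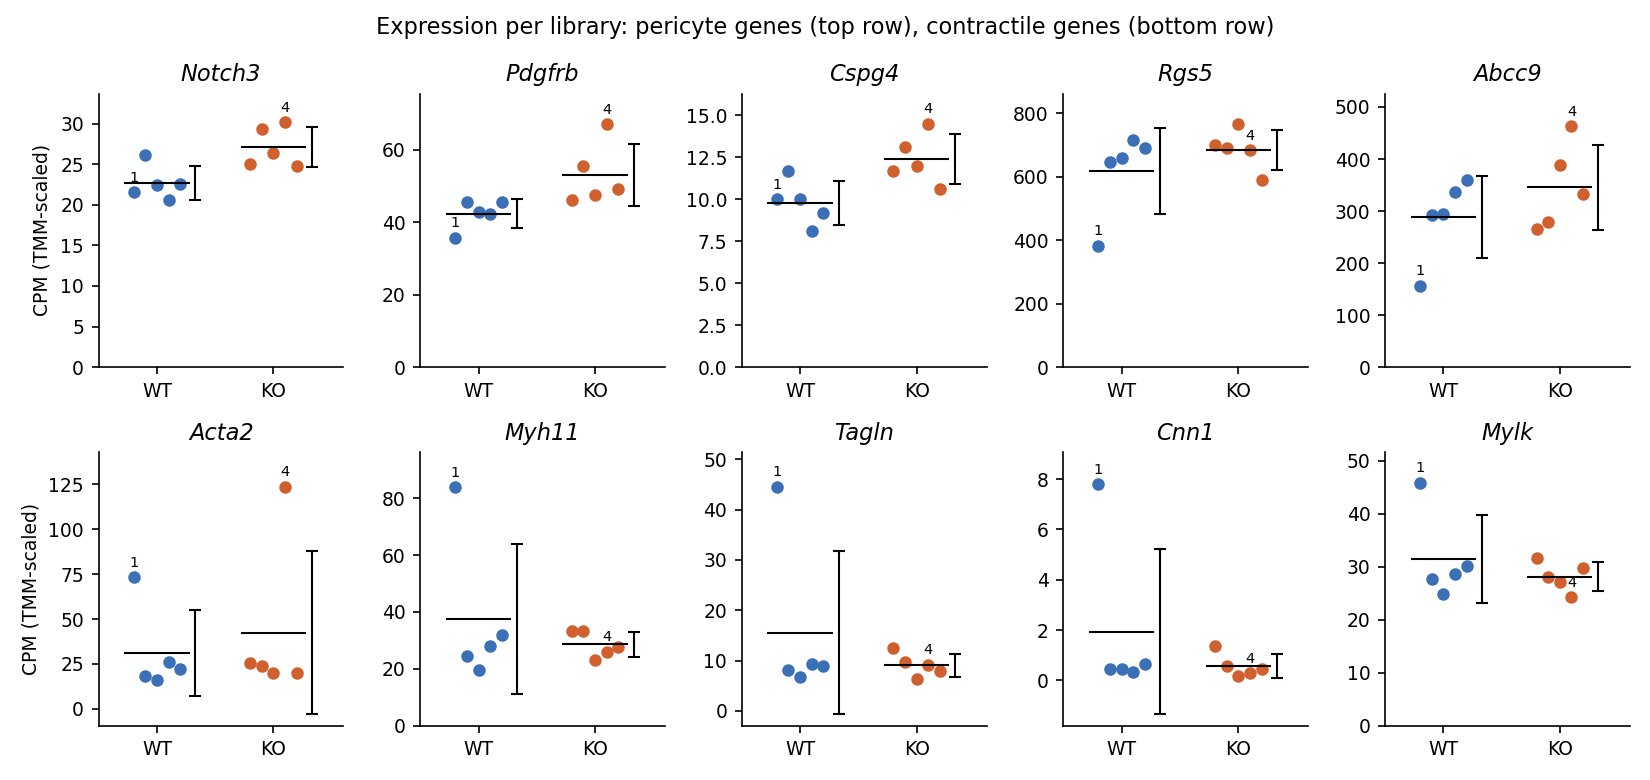
CPM of each gene in every library, wild type (WT, blue) and knockout (KO, orange), with the group mean (line) and SD (bar), n = 5 each. The numerals mark wild-type library 1 and knockout library 4. Library 1 is the highest point for Myh11, Tagln, Cnn1 and Mylk, and library 4 for Acta2 at 123.6 CPM.

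Notch3 (ENSMUSG00000038146, chromosome 17, 32339794 to 32385893, minus strand, GRCm39) encodes the mural cell Notch receptor. It stood at 21.5, 26.2, 22.5, 20.6 and 22.5 CPM in wild-type libraries 1 to 5 and at 25.0, 29.3, 26.4, 30.2 and 24.8 CPM in knockout libraries 1 to 5. The groups overlapped through wild-type library 2, which exceeded 2 of the knockout libraries. The means were 22.7 ± 2.10 and 27.1 ± 2.48 CPM (SD, n = 5), with a log2 fold change of 0.26 ± 0.085 (SE; edgeR adjusted p = 0.616). The value was 0.24 without wild-type library 1 and 0.20 without that library and knockout library 4. It was 0.16 with scaling to library totals alone, which also moved the median of all genes from -0.01 to -0.12.

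Notch3 lies 3.34 Mb from Mapk13, on a chromosome that held 45 of the 59 genes called over the whole table. On this chromosome 827 genes were tested, so 45 of 827 were called there, where 0.353% of all genes tested were called. Of the 5 tested genes on each side of Notch3, 1 was called. This was 2310015A16Rik, a long noncoding RNA gene with 1.06 ± 0.47 CPM in the wild-type and 0.024 ± 0.033 CPM in the knockout libraries (log2 fold change -5.35, edgeR adjusted p = 0.00204). The other 9 were not called, and 5 of the 10 neighbours were above 0. Among them were the anchoring protein gene Akap8 at a log2 fold change of 0.15 and the ribosome biogenesis gene Rrp1b at 0.07. On the far side the nearest called gene was H2-T24, at 3.97 Mb. The long noncoding RNA gene Gm17276 overlaps Notch3 on the opposite strand and had a log2 fold change of 0.49 (adjusted p = 0.616), with 4.32 ± 0.73 CPM in the wild-type and 6.06 ± 1.29 CPM in the knockout libraries. Of the 50-base stretches in Notch3 transcripts, 6.83% also lay in transcripts of another gene, nearly all in Gm17276. The strand setting of the counting is not given in the sources used here, so reads from the overlap cannot be told apart.

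**Figure D3:**
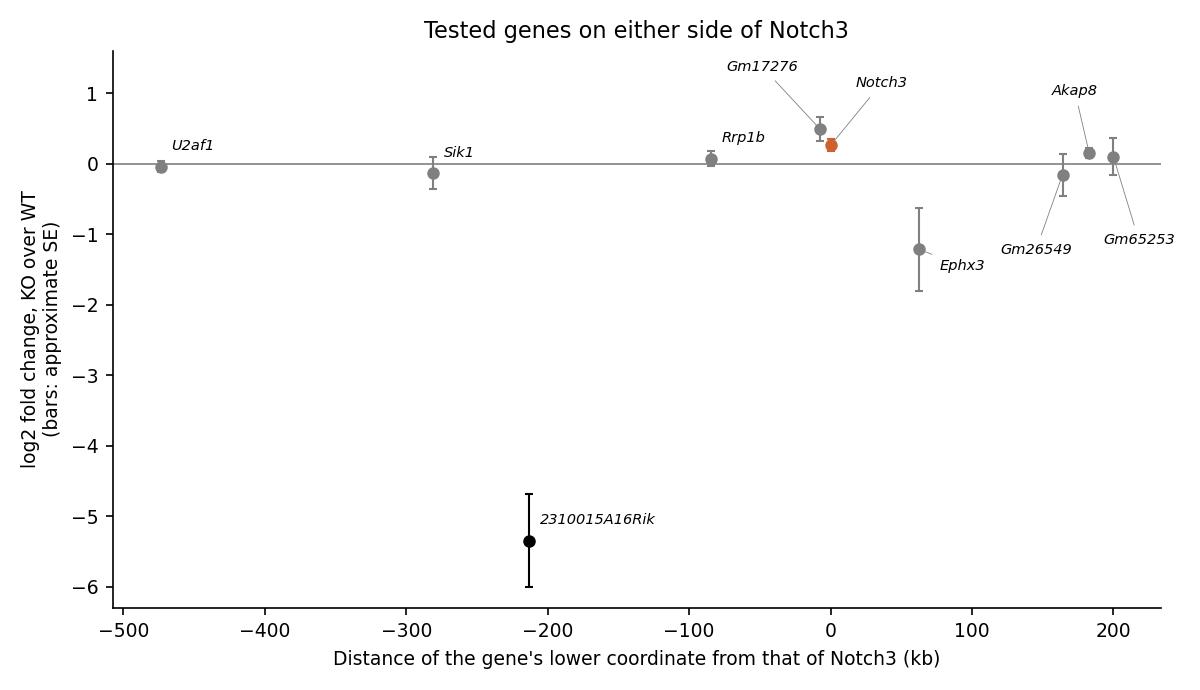
Log2 fold change (knockout over wild type, bars approximate SE) of Notch3 (orange) and 9 of its 10 tested neighbours, by distance in kb along chromosome 17. The called gene 2310015A16Rik (black) lies at -5.35, and Notch3 lies at 0.26.

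Pdgfrb (ENSMUSG00000024620, chromosome 18, 61178212 to 61218133, plus strand) encodes the receptor that binds endothelial PDGF-B. Wild-type libraries 1 to 5 held 35.8, 45.7, 42.8, 42.2 and 45.6 CPM, and knockout libraries 1 to 5 held 46.2, 55.5, 47.6, 67.1 and 49.2 CPM. It was the 1 gene of the 10 whose groups did not overlap, where 1.78% of all genes tested had this property. The gap was narrow, from 45.74 CPM in wild-type library 2 to 46.23 CPM in knockout library 1. Under scaling by totals alone the groups overlapped, at 46.6 CPM in wild-type library 1 and 43.7 CPM in knockout library 1. Wild-type library 1, whose TMM factor was 1.302, was thus the lowest wild-type library with that factor and the highest without it. The means were 42.4 ± 4.05 and 53.1 ± 8.60 CPM, with a log2 fold change of 0.33 ± 0.11 (SE; edgeR adjusted p = 0.616). Without wild-type library 1 and knockout library 4 the log2 fold change was 0.17 ± 0.073 (adjusted p = 0.581).

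Cspg4 (ENSMUSG00000032911, chromosome 9, 56772317 to 56807187, plus strand) encodes the NG2 proteoglycan on the pericyte surface. Its values were 10.02, 11.7, 10.04, 8.08 and 9.16 CPM in the wild-type and 11.7, 13.1, 11.99, 14.5 and 10.6 CPM in the knockout libraries. Knockout library 5 lay below wild-type library 2, so the groups overlapped. The log2 fold change was 0.34 ± 0.115 (SE; edgeR adjusted p = 0.616), and 0.28 without wild-type library 1 and knockout library 4. Notch3, Pdgfrb and Cspg4 shared their order at the top: knockout library 4 was the highest and knockout library 2 the second highest for each. Taken within each library, their ratios ranged from 0.45 to 0.60 for Notch3 over Pdgfrb and from 0.19 to 0.28 for Cspg4 over Pdgfrb. The highest Notch3 value itself was 1.461 times the lowest. Such ratios do not depend on the scaling of libraries. The wild-type and knockout means of the Notch3 ratio were 0.54 ± 0.049 and 0.52 ± 0.041, and those of the Cspg4 ratio 0.23 ± 0.037 and 0.23 ± 0.018 (SD, n = 5).

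Rgs5 (ENSMUSG00000026678, chromosome 1, 169483036 to 169524887, plus strand) encodes a regulator of G protein signalling and is among the most used pericyte markers. It stood at 382.0, 645.6, 657.5, 715.9 and 688.3 CPM in the wild-type libraries and at 699.1, 688.6, 764.0, 682.6 and 588.7 CPM in the knockout libraries. Apart from wild-type library 1, the highest value was 1.298 times the lowest, the smallest such spread of the 10 genes. The log2 fold change was 0.15 ± 0.16 (SE; edgeR adjusted p = 0.865) and 0.02 ± 0.088 without wild-type library 1. Without the same library Notch3, Pdgfrb and Cspg4 were at 0.24, 0.27 and 0.34, and whether Rgs5 differed from them was not tested.

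Abcc9 (ENSMUSG00000030249, chromosome 6, 142533588 to 142648571, minus strand) encodes SUR2, the regulatory subunit of ATP-sensitive potassium channels. Pericytes pair it with Kir6.1, the product of Kcnj8, and cardiomyocytes express Abcc9 as well. The wild-type libraries held 156.3, 292.8, 293.7, 335.8 and 359.8 CPM and the knockout libraries 264.6, 279.3, 389.1, 462.8 and 332.4 CPM. The log2 fold change was 0.27 ± 0.22 (SE; edgeR adjusted p = 0.820), and -0.02 ± 0.12 without wild-type library 1 and knockout library 4. The 4 libraries with most Abcc9 (knockout 4 and 3, wild type 5 and 4) were also the 4 with the highest summed ventricular cardiomyocyte markers, and wild-type library 1 was the lowest on both. The share of Abcc9 that comes from cardiomyocytes was not tested. Kcnj8 had 19.2 ± 3.56 and 23.5 ± 4.05 CPM (log2 fold change 0.29, adjusted p = 0.740), and Abcc9 over Kcnj8 ranged from 11.04 to 18.9 across the 10 libraries.

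The contractile genes were set apart by wild-type library 1. Myh11 (ENSMUSG00000018830, chromosome 16, 14012399 to 14109236, minus strand), the smooth muscle myosin heavy chain gene, stood at 83.9, 24.5, 19.5, 28.1 and 32.0 CPM in the wild-type and at 33.1, 33.1, 23.1, 26.0 and 27.8 CPM in the knockout libraries. Tagln (ENSMUSG00000032085, chromosome 9, 45840909 to 45847404, minus strand), which encodes the actin-binding protein SM22α, stood at 44.5, 8.16, 6.77, 9.38 and 8.88 CPM and at 12.4, 9.61, 6.24, 9.18 and 7.88 CPM. In both genes library 1 exceeded every other library and the remaining groups overlapped. Against the mean of wild-type libraries 2 to 5, library 1 held 3.23 times as much Myh11, 5.37 times as much Tagln and 1.65 times as much Mylk.

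Cnn1 (ENSMUSG00000001349, chromosome 9, 22010512 to 22020926, plus strand), the gene of the actin-binding protein calponin, was close to its detection limit elsewhere. It held 355 counts in wild-type library 1, 7 to 25 counts in wild-type libraries 2 to 5 and 4 to 35 counts in the knockout libraries. As CPM these were 7.80 in library 1, 0.34 to 0.64 in wild-type libraries 2 to 5, and from 0.19 up to 1.38 in knockout hearts. Mylk (ENSMUSG00000022836, chromosome 16, 34565580 to 34822790, plus strand), the gene of myosin light chain kinase, held 45.8, 27.6, 24.9, 28.6 and 30.1 CPM in the wild-type and 31.6, 27.96, 27.1, 24.2 and 29.7 CPM in the knockout libraries. Its groups overlapped, and library 1 was again the highest.

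The log2 fold changes of Myh11, Tagln, Cnn1 and Mylk were -0.40 ± 0.36, -0.78 ± 0.51, -1.77 ± 0.96 and -0.16 ± 0.15 (SE; edgeR adjusted p = 0.839, 0.766, 0.744 and 0.844). Without wild-type library 1 each sign turned, to 0.14, 0.14, 0.26 and 0.02 (adjusted p = 0.944, 0.964, 0.980 and 0.988). The voom fit, which gives outlying libraries less weight, also put Myh11, Tagln and Mylk above 0. That library was the highest for 4 of the 10 genes and the lowest for Pdgfrb, Rgs5 and Abcc9, to be read against the 27.8% and 22.5% of all genes above. For Pdgfrb this held with TMM factors and not under scaling by totals alone. The lung and skeletal muscle markers given above were high in the same library. So were the fibroblast markers, 9 of 10 highest there and summing to 3012.5 CPM where the other wild-type libraries held 1510.7 to 1794.6 CPM and knockout libraries 1302.3 to 1562.4 CPM. The 10 endothelial markers divided there: 2 were highest of all libraries (Vwf at 1.54 times and Pecam1 at 1.17 times the mean of wild-type libraries 2 to 5) and 5 were lowest, among them Cdh5 at 0.68 and Kdr at 0.73 times. Their sum of 707.0 CPM lay inside the range of 674.3 to 806.7 CPM of the other 9 libraries. The part of other tissues in its contractile values was not tested.

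**Figure D4:**
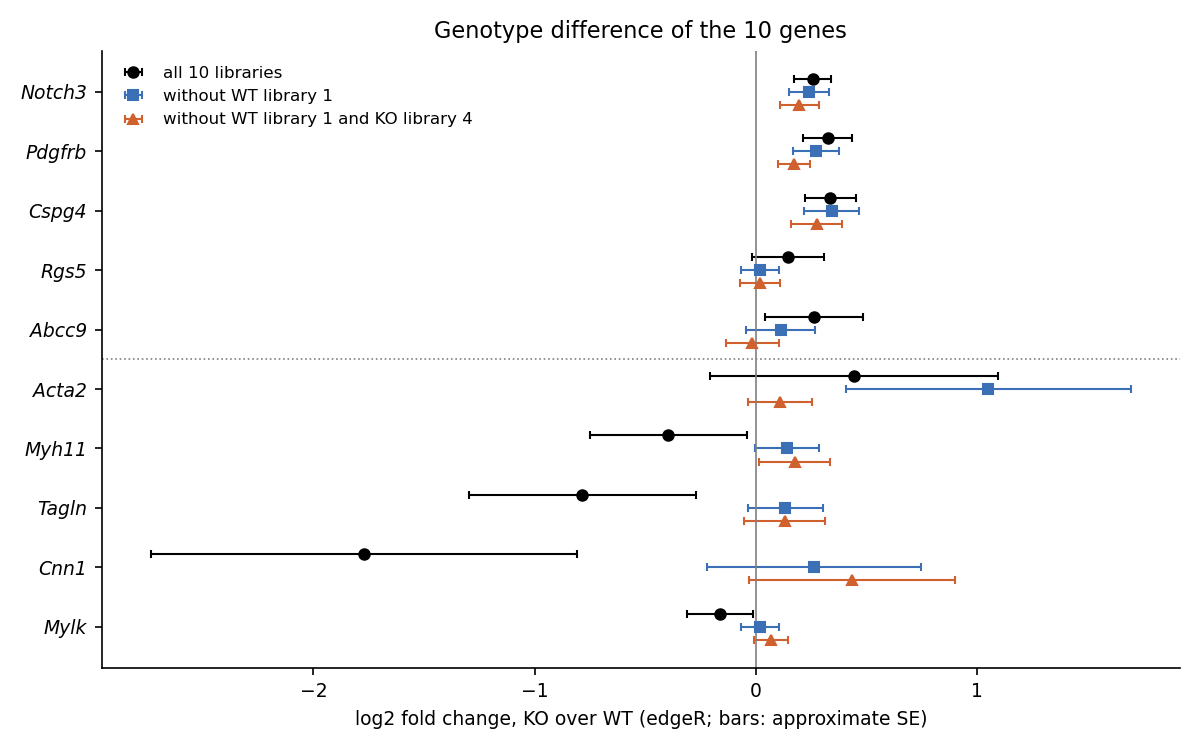
Log2 fold change of the 10 genes (knockout over wild type, bars approximate SE) in all 10 libraries (black), without wild-type library 1 (blue) and without that library and knockout library 4 (orange). Myh11, Tagln, Cnn1 and Mylk cross 0 when library 1 is left out, and Acta2 moves from 0.44 to 1.05 and then to 0.11.

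Acta2 (ENSMUSG00000035783, chromosome 19, 34217737 to 34232990, minus strand), the gene of α-smooth muscle actin, was high in 1 library of each group. It stood at 73.2, 18.5, 15.9, 26.2 and 22.1 CPM in wild-type libraries 1 to 5 and at 25.4, 23.7, 19.8, 123.6 and 19.8 CPM in knockout libraries 1 to 5. Its log2 fold change of 0.44 ± 0.65 (SE; edgeR adjusted p = 0.907) became -0.49 without knockout library 4, 1.05 without wild-type library 1 and 0.11 ± 0.14 without both. Knockout library 4 held 5.58 times the mean of the other knockout libraries. The ratio of Acta2 to Myh11 was 4.76 in that library and 0.69 to 0.93 in the other 9, wild-type library 1 included at 0.87. Acta2 thus moved with Myh11 in wild-type library 1 and apart from it in knockout library 4, where Myh11, Tagln, Cnn1 and Mylk were 0.89, 1.02, 0.45 and 0.83 times the mean of the other knockout libraries.

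Other genes also stood out in knockout library 4. The cardiac actin gene Actc1, which belongs to the same family, was at 4989.9 CPM there and at 815.7 to 2056.9 CPM in the other 9 libraries, and 6 of the 8 ventricular markers were highest there. Cdkn1a, a p53 target that halts the cell cycle, was at 13.7 CPM there and at 65.9 to 105.1 CPM in the other 9 libraries. The circadian factor gene Dbp was at 65.6 CPM against 6.68 to 18.8 CPM. No 50-base stretch of Acta2 transcripts was found in Actc1, Acta1 or Actg2 transcripts, and 7.49% lay in transcripts of some other gene, mostly in Stambpl1, which overlaps Acta2 on the opposite strand and had 3.08 CPM in knockout library 4. The 6 activated fibroblast markers, genes of cells that can also express Acta2, summed to 31.6 CPM in knockout library 4, 12.4 to 21.5 CPM in the other knockout libraries and 60.0 CPM in wild-type library 1. Their part in the Acta2 value was not tested.

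The promoter of Acta2 is shown because its level departed from that of the other contractile genes. RefSeq windows of 250 bases before to 50 bases after the gene start (GRCm38.p6) were found for 7 of the 10 genes, and not for Pdgfrb, Myh11 and Tagln. A CArG box, read on both strands, with all letters matching was in 0 of these 7 windows and in 1.63% of 32851 windows of all genes. With 1 departing letter allowed, matches were in the windows of Acta2 and Cspg4, 28.6% of the 7, against 21.1% of all windows. In the stretch below, at chr19:34255394-34255477 on the minus strand, from 104 to 21 bases before the start, capitals mark the 2 matches, which do not overlap.
Acta2: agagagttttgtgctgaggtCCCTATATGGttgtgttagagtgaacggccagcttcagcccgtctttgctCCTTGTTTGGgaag
A match is a likeness of letters and does not show that serum response factor was bound.

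Setting the sets side by side, the mean log2(CPM + 1) of the pericyte genes minus that of the contractile genes was 0.44 in wild-type library 1 and 2.80, 2.89, 2.52 and 2.56 in wild-type libraries 2 to 5. In knockout libraries 1 to 5 it was 2.32, 2.70, 3.08, 2.64 and 2.72. Apart from wild-type library 1, every wild-type value lay within the knockout range. The group means were 2.24 ± 1.02 and 2.69 ± 0.27 (SD, n = 5), a difference of 0.45 that became -0.0008 without wild-type library 1. In that library, with TMM factors, the pericyte mean was the lowest of the 10, at 5.81 against 6.19 to 6.66. The contractile mean was the highest, at 5.36 against 3.32 to 4.02.

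**Figure D5:**
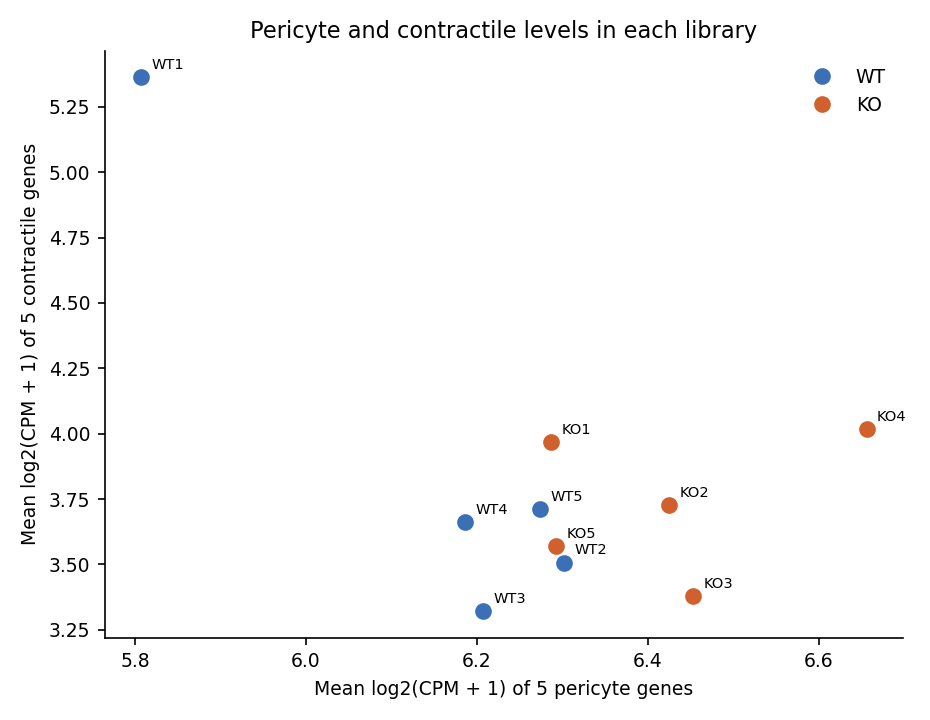
Mean log2(CPM + 1) of the 5 contractile genes against that of the 5 pericyte genes, 1 point per library (WT blue, KO orange). WT1 lies alone at 5.81 and 5.36, and KO4 has the highest pericyte mean, 6.66.

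Further genes of each cell type were taken from fixed lists. Of 19 other pericyte-enriched genes, all tested, 0 were called (edgeR), 2 had an unadjusted p under 0.05, and 10 were above 0, with a median log2 fold change of 0.05 that became -0.06 under scaling by totals alone. Tbx18, a mural and epicardial transcription factor gene, had 5.90 ± 0.63 and 4.64 ± 0.84 CPM (-0.35, adjusted p = 0.688). The mesothelium and epicardium markers moved with it: 7 of 7 were below 0, 6 with an unadjusted p under 0.05 and 0 called (edgeR, all 10 libraries). Over all genes tested 46.6% were above 0 and 6.86% had such a p. Upk3b had an edgeR adjusted p of 0.439 with all 10 libraries and 0.383 without wild-type library 1. It was called by DESeq2 (adjusted p = 0.0154) and by edgeR without wild-type library 1 and knockout library 4 (adjusted p = 0.00458). The median of these markers was -1.19, and -0.70 without wild-type library 1. Their sums were 34.8 to 127.9 CPM in wild-type hearts and 17.4 to 36.5 CPM in knockout hearts. Their part in the Tbx18 value was not tested. Rgs4, another G protein regulator gene, had a log2 fold change of 0.26 (adjusted p = 0.717). In wild-type library 1 the list divided, with 8 of 19 genes lowest and 7 highest of the 10 libraries. Higd1b, Cox4i2, Vtn and Kcnj8 stood there at 0.56, 0.59, 0.60 and 0.62 times the mean of wild-type libraries 2 to 5, beside Rgs5 at 0.56 and Abcc9 at 0.49. On the high side Anpep, Ednrb, Gucy1a1, Mcam, Ndufa4l2 and Steap4 stood at 2.02, 1.97, 1.90, 1.81, 1.62 and 1.39 times.

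Of 22 other contractile smooth muscle genes 19 were tested and 0 were called (edgeR), with 0 at an unadjusted p under 0.05. In wild-type library 1, 16 of the 22 were highest of the 10 libraries, as were Myh11 and Tagln. The tropomyosin gene Tpm2 was at 11.03 times, the integrin gene Itga8 at 6.73 times and the myosin light chain gene Myl9 at 4.53 times the mean of wild-type libraries 2 to 5. Of the 22 genes 2 were lowest there, Synpo2 at 0.82 and Smtn at 0.93 times that mean. With that library 4 of 19 genes were above 0 and the median was -0.21. Without it 12 of 19 were above 0 and the median was 0.10. The members with the smallest p were Susd5 (log2 fold change -1.21, adjusted p = 0.722), the smoothelin gene Smtn (0.30, adjusted p = 0.740) and Tpm2 (-1.39, adjusted p = 0.748). Susd5 was at -0.33 and Tpm2 at 0.20 without wild-type library 1, and without knockout library 4 Smtn was at 0.12. Smtn, a cytoskeletal gene of contractile smooth muscle, was highest in knockout library 4, as Acta2 was. That library was the highest for 2 of the 22 genes of this list and for 16.6% of all genes tested.

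Around the receptors, 0 of 14 Notch ligands, receptors and targets were called (edgeR), 1 had an unadjusted p under 0.05, and 8 were above 0 with a median of 0.06. The ligand gene Jag2 had 19.1 ± 1.53 and 23.0 ± 2.23 CPM (log2 fold change 0.27, adjusted p = 0.572). The endothelial ligand gene Dll4 had a log2 fold change of 0.31 and Heyl, a Notch target transcribed in mural cells, of 0.25 (adjusted p = 0.736 and 0.744). Under scaling by totals alone the Notch median was -0.025. Of 5 further PDGF ligand and receptor genes 0 were called and 0 had an unadjusted p under 0.05. Pdgfb, the ligand of PDGFRβ, had 16.2 ± 2.48 and 18.5 ± 1.95 CPM (0.19, adjusted p = 0.750), and Pdgfrb over Pdgfb was 2.64 ± 0.22 in the wild-type and 2.86 ± 0.25 in the knockout libraries. The fibroblast receptor gene Pdgfra stood at a log2 fold change of -0.20 and the ligand gene Pdgfc at -0.76 (adjusted p = 0.777 and 0.766). Wild-type library 1 held 4.86 times the mean Pdgfc of the other wild-type libraries, and with it left out Pdgfra was at -0.05, Pdgfc at 0.075, Pdgfb at 0.11 and Dll4 at 0.21.

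Among regulators of contraction, 0 of 16 genes of myosin light chain phosphorylation were called and 0 had an unadjusted p under 0.05 (edgeR), with 8 above 0 and a median of -0.003. Mylk4, a muscle kinase gene, had 83.3 ± 31.1 and 151.7 ± 132.1 CPM (adjusted p = 0.750), with its highest value in knockout library 4, and its log2 fold change of 0.87 became 0.21 without that library. Myl6 and Myl9, both myosin light chain genes, had log2 fold changes of -0.23 and -0.59 (adjusted p = 0.820 and 0.824), and both signs turned without wild-type library 1, to 0.025 and 0.20. Of 11 genes of serum response factor, myocardin and their regulators 0 were called and 1 had an unadjusted p under 0.05. This was the ternary complex factor gene Elk1 (0.23, adjusted p = 0.714). Tgfbr1, a TGF-β receptor gene, and Mrtfb, a myocardin relative, had -0.14 and 0.07 (adjusted p = 0.834 and 0.860), and without wild-type library 1 -0.007 and 0.039. Myocd itself, also a cardiomyocyte gene, had 33.7 ± 10.3 and 35.0 ± 9.46 CPM. Of the 3 other subunit genes of ATP-sensitive potassium channels 0 were called and 0 had an unadjusted p under 0.05: Kcnj8 is given above, and Kcnj11 and Abcc8 had log2 fold changes of 0.06 and 0.27 (adjusted p = 0.956 and 0.740). Kcnj8 was at 0.18 and Kcnj11 at -0.05 without wild-type library 1, and without knockout library 4 Abcc8 was at 0.12.

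The profile closest to that of Notch3 was sought among 12250 protein-coding genes with a mean of at least 1 CPM, as the root mean square difference between centred log2(CPM + 1) profiles over the 10 libraries. It was that of Usp49, a deubiquitinase gene, at 0.064, followed by Cspg4 and Zmiz2 at 0.075, the cofilin phosphatase gene Ssh1 at 0.077 and the microRNA-processing gene Dicer1 at 0.081, where the spread of Notch3 itself was 0.167. Cspg4 was thus the second nearest of all these genes and Pdgfrb stood at rank 103. The other pericyte genes were far from Notch3, Rgs5 at rank 7181 and Abcc9 at rank 10122. Without wild-type library 1, Usp49 was the 1 gene of the nearest 5 that stayed among them, and Cspg4 stood at rank 7. Rgs5 and Abcc9 then stood at ranks 3759 and 8822. For Myh11 the nearest were Fam83h at 0.178, the kinase gene Pak1 at 0.197, the smooth muscle actin nucleator gene Lmod1 and the cyclic GMP phosphodiesterase gene Pde5a at 0.204 and the carbonyl reductase gene Cbr3 at 0.209. None of these 5 stayed among the nearest 5 without wild-type library 1. Tagln was at rank 35 with that library and at rank 27 without it. Mylk was at ranks 295 and 124, Cnn1 at 660 and 1762, and Acta2 at 11940 and 12200.

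Overlapping transcripts limit 2 of the contractile genes. In Tagln 55.1% of 50-base stretches also lay in transcripts of another gene, mostly the opposite-strand noncoding gene Gm48529, and in Cnn1 32.9% did, all in Elof1. Gm48529 stood at 3.10 CPM in wild-type library 1, at 1.58 to 2.21 CPM in the other wild-type and at 1.02 to 3.11 CPM in the knockout libraries, below Tagln in each. A smaller part of the shared stretches of Tagln lay in Pcsk7, also on the opposite strand. Pcsk7 stood at 12.73 to 17.84 CPM over the 10 libraries, above Tagln in every library except wild-type library 1. Elof1 stood at 15.8 CPM in wild-type library 1 and at 8.85 to 11.25 CPM in the other 9, above Cnn1 in every library.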

How the data were processed

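Alignment was with STAR 2.5.2 to GRCm39, per the labels' protocols. Per the submitters' processing notes, RSEM 1.3.0 was also a tool. The authors deposited expected counts per gene for 10 libraries, all whole numbers. For annotation release, strand setting, trimming and batches the record is: not given in the sources used here. The labels do not state that samples are separate animals, so each p-value rests on sample spread that may be technical. Sample titles follow a different scheme in each group, so a batch cannot be told apart from genotype. Total counts were 21403189 to 40627138 per library. Symbols and positions came from GENCODE for GRCm39.

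Counts were tested with edgeR 4.0.16 in R 4.3.3 (TMM factors, default filter with a minimum count of 10, robust quasi-likelihood F test, Benjamini-Hochberg at 0.05). SE is the absolute log2 fold change over the square root of F. CPM per kb used the union of exons. Alternatives were DESeq2 1.42.0, limma 3.58.1 voom, 3 other scalings, 2 other filters and left-out libraries. The procedure was tested on simulated counts in which no library was made outlying, so the effect of such libraries on the calls was not tested there. The members, the lists and the libraries doubted were chosen with earlier results of these data known. Genes named were the members, called list genes, the 3 smallest p of each pathway list, the neighbours of Notch3 and the nearest profiles. Genes named outside this rule, after their values were seen, are Mapk13, Actc1, Acta1, Actg2, Stambpl1, Gm48529, Pcsk7, Elof1, H2-T24, Higd1b, Cox4i2, Vtn, Anpep, Ednrb, Gucy1a1, Mcam, Ndufa4l2, Steap4, Itga8, Synpo2, Upk3b, Vwf, Pecam1, Cdh5, Kdr, Cdkn1a, Dbp and Myocd. The share of 50-base stretches, the overlap of Pdgfrb under other scalings and the nearest profiles without wild-type library 1 were also added after seeing the data. A gene among the neighbours of Notch3 and a gene of the pericyte-enriched list that the rule names are not reported here.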

Additional observations from a re-analysis of the deposited data

Results flagged for a closer look

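Each group of 5 libraries was searched for a value whose gap to its nearest neighbour took up more than 0.71 of the group's range. For 5 independent, normally distributed values chance passes this bound in about 1 of 20 groups. Of 64 groups searched 20 held such a value, 17 of them in wild-type library 1 and 3 in knockout library 4. The groups share libraries, and ratios reuse the same genes. Genes and lists were also chosen with earlier results known, so this count is a description and cannot be set against that rate.

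Among the 10 genes, wild-type library 1 stood apart for Acta2 at 73.2 CPM, Myh11 at 83.9, Tagln at 44.5, Cnn1 at 7.80 and Mylk at 45.8 CPM, all high, and for Rgs5 at 382.0 CPM, low. It stood apart for the pericyte minus contractile difference at 0.44 and for the ratio of Tagln to Myh11 at 0.53, against 0.28 to 0.35 in the other wild-type libraries.

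Its summed markers stood apart for fibroblasts at 3012.5 CPM, activated fibroblasts at 60.0, atrial cardiomyocytes at 1408.4, macrophages at 535.3, airway and lung epithelium at 2235.1, mesothelium and epicardium at 127.9, adipocytes at 329.4, skeletal muscle at 483.2 and Schwann cells and nerve at 53.9 CPM. In knockout library 4 the values that stood apart were Acta2 at 123.6 CPM, Acta2 over Myh11 at 4.76 and the summed atrial markers at 128.7 CPM, where the other knockout libraries lay between 41.7 and 63.4 CPM.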

How the results depend on the processing

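None of the genes tested among the 10 was called under any of the 19 alternatives, with a lowest adjusted p of 0.297 for Notch3 by DESeq2, which gave no p for Acta2, Tagln and Cnn1. Over all genes the 59 calls became 118 with DESeq2 and 47 to 75 when 1 library was left out, the largest without wild-type library 1. With libraries left out in turn, log2 fold changes ranged from 0.22 to 0.32 for Notch3, 0.23 to 0.37 for Pdgfrb and 0.27 to 0.41 for Cspg4. They ranged from -0.49 to 1.05 for Acta2, -0.56 to 0.14 for Myh11, -0.97 to 0.14 for Tagln, -2.36 to 0.26 for Cnn1 and -0.23 to 0.019 for Mylk, each changing sign without 1 library. Without wild-type library 1 and knockout library 4 together, Abcc9 was at -0.016, Myh11 at 0.18, Tagln at 0.13, Cnn1 at 0.43 and Mylk at 0.068. With voom quality weights Myh11 was at 0.20, Tagln at 0.082 and Mylk at 0.054. The cause was not tested for voom. The pericyte minus contractile difference ranged from -0.0008 to 0.61 with 1 library left out and was 0.01 without both libraries. The filter of 1 CPM in 5 libraries removed Cnn1. No paired analysis was made, because the labels match no wild-type sample with a knockout sample.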
